A study of Sus scrofa with 16 samples.

Results

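The known miRNAs of the sow ovary were compared between low and high fecundity across both phases of the estrous cycle. Small RNA was sequenced from ovarian tissue of 16 Large White sows, 4 in each of 4 groups. Of the sows killed on day 14 of the cycle, in the luteal phase, those of high fecundity are called LH and those of low fecundity LL. The sows killed on day 20, in the follicular phase, are called FH and FL in the same way. Fecundity was assigned from the total number of piglets born, and the sows were unrelated, multiparous and kept on the same farm. The low-fecundity sows were of lower parity than most of the high-fecundity sows, so parity and fecundity cannot be told apart in full here. The comparison set 8 low-fecundity sows (LL and FL) against 8 high-fecundity sows (LH and FH), with the phase as an additive term, so that the effect estimated is the average over both phases. The miRNAs described are the entries of the count table that carry a porcine miRNA name (the prefix ssc-), which are 216 of the 1940 entries. The other 1724 entries are predicted miRNAs. After removal of entries with low counts, 200 known miRNAs were tested together with 245 predicted ones, and 16 known miRNAs were not tested. Those 16 had 3 to 22688 counts over all libraries, the most in ssc-miR-29c, which was read in 2 libraries.

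A miRNA is a short RNA that guides a silencing complex to messenger RNAs with a matching stretch, mostly in the 3' untranslated region, and lowers their translation or stability. Many miRNAs are cut from the same primary transcript and are then called a cluster, and miRNAs that share the seed, the stretch near the 5' end that pairs with the target, form a family. In the ovary they act in granulosa cell growth and death, in the making of steroid hormones and in the formation and regression of the corpus luteum. The ovary at day 14 is dominated by corpora lutea and at day 20 by large follicles. In bulk ovarian tissue, fewer cells of a type and less of an RNA per cell cannot be told apart.

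The study measured some of these miRNAs by RT-qPCR as well, and its primers are the only sequences of known miRNA assays used here. They are printed because 4 of the 5 belong to miRNAs with an unadjusted P under 0.05 in the comparison of fecundity, and the fifth, ssc-miR-361-3p, is an entry that was read in only a few libraries. Each is written 5' to 3'.
ssc-miR-671-5p: aggaagccctggaggggctg
ssc-miR-1307: atatactcggcgtggcgtcggt
ssc-miR-1343: atatctcctggggcccgcactct
ssc-miR-1249: atatacgcccttccccccctt
ssc-miR-361-3p: atcccccaggtgtgattctga
The primer of ssc-miR-671-5p is the shortest of the set, with 20 bases, and the richest in G and C, at 70%. The primer of ssc-miR-361-3p has the lowest share of G and C, at 52.4%.

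Total counts ranged from 8998496 to 37194836 per library, and known miRNAs took 97.1% to 99.2% of them. Levels are given as CPM, the count relative to library size, after TMM normalization, which scales libraries so that most miRNAs do not differ. The TMM factors differed between the groups: they were 0.670 to 1.07 in high-fecundity and 0.741 to 1.74 in low-fecundity sows (exact permutation test within phases, two-sided, p = 0.00735). Without them, scaled by total counts alone, the median log2 fold change of all tested miRNAs moved up by 0.49, so the directions below are relative to the bulk of miRNAs. These totals count entries with equal counts more than once, and 935 of the 1940 entries equal another. The 3p and 5p entries of ssc-miR-143 each had 3505455 of the 13221020 counts of FH2, but 1306140 of the 14172683 counts of LL2. The ovarian miRNA ssc-miR-202-5p, which is known from gonads, was present in all libraries, at 1209 to 2707 CPM (LH) and 1328 to 3843 CPM (LL) in the luteal phase and 268 to 1302 CPM (FH) and 64.5 to 596 CPM (FL) in the follicular phase. The summed markers of ciliated and tubal epithelium stood apart in 3 libraries, at 21828 CPM in LH4, 7510 CPM in FL2 and 16082 CPM in FL4, against at most 1118 CPM in the other libraries. Most of the sum in these 3 was a single member, ssc-miR-34c, and the other members did not all follow it. ssc-miR-429 and ssc-miR-205 had their highest counts in FL4, but ssc-miR-182 and ssc-miR-183 had theirs in LL1. The authors' share of raw reads that passed cleaning was lowest in LL1, FL2 and FL4, which are all low-fecundity sows.

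Over both phases, edgeR's quasi-likelihood test gave 39 known miRNAs an unadjusted P under 0.05. They made up 19.5% of the 200 known miRNAs tested, and the share over all 445 tested miRNAs was 12.8%. Of the 39, 19 were higher in low-fecundity sows, against 7.64% of all tested miRNAs, and 20 were lower, against 5.17%. This balance rests on the scaling: by total counts alone 52 known miRNAs were higher and 2 lower with a P under 0.05, and 21 of the 39 kept it, namely all 19 higher ones and, of the lower ones, ssc-miR-1 and ssc-miR-195. The study's threshold asks for P under 0.05 without adjustment and for a log2 fold change (log2FC) of 1 or more in size. It called 12 of the 200 known miRNAs, a share no higher than the 6.52% of all tested miRNAs that were called. Of these 9 were higher in low fecundity (5.39% of all tested) and 3 lower (1.12% of all tested), shares that were also near those of all tested miRNAs. Because the 3p and 5p entries of ssc-miR-143 had equal counts in every library, and likewise those of ssc-miR-296, the 39 entries hold 37 distinct sets of counts and the 12 called ones hold 11. Among the 37, the counts of ssc-miR-199a-5p and ssc-miR-199b-5p were nearly equal. The 445 tested miRNAs also held entries with equal counts, and 419 were tested when such entries were counted once. No known miRNA had an adjusted p under 0.05 (edgeR, Benjamini-Hochberg method), and the smallest adjusted p was 0.213. DESeq2 on the same miRNAs gave 54 with an unadjusted P under 0.05 and 5 with an adjusted p under 0.05, which were ssc-miR-191, ssc-miR-185, ssc-miR-671-5p, ssc-miR-338 and ssc-miR-142-5p. Of these ssc-miR-142-5p, which is not among the 39, was at 0 counts in LH1 to LH4, LL2 and FL1 and at 1489 to 9079 counts in the other libraries. All 39 had the same sign in the luteal and in the follicular phase.

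**Figure D1:**
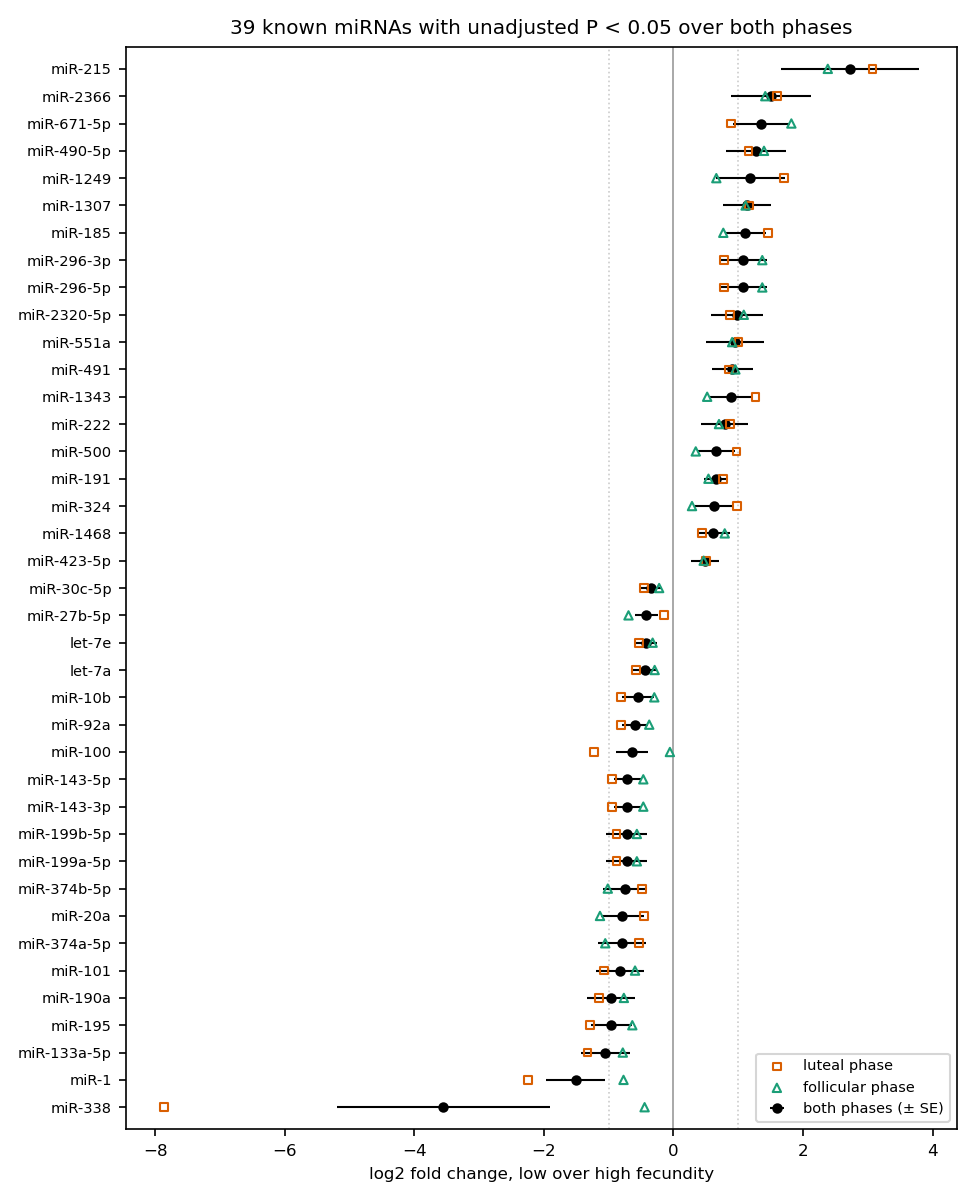
The log2 fold change of low over high fecundity (horizontal axis) is shown for each of the 39 known miRNAs with an unadjusted P under 0.05. Black points with bars are the estimate over both phases ± SE, squares the luteal and triangles the follicular estimate, and dotted lines mark a log2 fold change of 1 in either direction. The estimates run from -3.55 for miR-338 to 2.73 for miR-215, and the squares and triangles lie on the same side of 0 in each row.

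The miRNA with the smallest P was ssc-miR-191, a widely expressed miRNA that lies with ssc-mir-425 within the span of DALRD3 (RefSeq annotation of Sscrofa11.1, as for the host genes below). The levels of ssc-miR-191 were 2785, 2710.0, 1653 and 3012 CPM in LH1 to LH4 and 4944, 4827, 3579 and 3891 CPM in LL1 to LL4. In the follicular phase they were 2482, 2225, 1796 and 2580.2 CPM in FH1 to FH4 and 2256, 2822, 3441 and 4684 CPM in FL1 to FL4. All 4 LL sows were above all 4 LH sows, while FL1 lay within the range of the FH sows. Over both phases ssc-miR-191 was higher in low fecundity (log2FC 0.65, SE 0.178, unadjusted P = 0.00226, edgeR). The estimates were 0.76 (SE 0.253) in the luteal and 0.54 (SE 0.252) in the follicular phase. An exact permutation test within phases on log2 CPM gave two-sided p = 0.00163, where the smallest p possible is 0.000408.

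ssc-miR-185, within the span of TANGO2, had a larger difference. Sows LH1 to LH4 had 665, 278, 472 and 492 CPM of ssc-miR-185 and LL1 to LL4 had 1863, 1137, 1302 and 917 CPM. Sows FH1 to FH4 had 429.6, 254, 201 and 252 CPM and FL1 to FL4 had 169, 508, 359 and 901 CPM. The LL sows were again all above the LH sows, and FL1 was below every FH sow. Low over high fecundity, ssc-miR-185 was higher (log2FC 1.11, SE 0.321, unadjusted P = 0.00346), with 1.45 in the luteal and 0.77 in the follicular phase. Its exact permutation p was 0.0110.

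Among the miRNAs with printed primers, ssc-miR-671-5p was a scarce miRNA. For ssc-miR-671-5p, LH1 to LH4 gave 18.2, 13.6, 19.3 and 15.1 CPM, against 45.2, 22.4, 30.97 and 23.9 CPM in LL1 to LL4. FH1 to FH4 gave 19.1, 9.37, 10.1 and 16.8 CPM, against 7.54, 57.9, 29.2 and 101 CPM in FL1 to FL4. No LL sow overlapped the LH range, and FL2, FL3 and FL4 were above all FH sows while FL1 was below them. It was higher in low fecundity (log2FC 1.35, SE 0.439, unadjusted P = 0.00752), and its estimates were 0.89 (SE 0.601) in the luteal and 1.82 (SE 0.615) in the follicular phase. The exact permutation test gave p = 0.0220.

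ssc-miR-1307, within USMG5, had nearly equal estimates in the phases, with 1.16 (SE 0.537) in the luteal and 1.11 (SE 0.537) in the follicular phase. The levels of ssc-miR-1307 were 369, 201, 96.9 and 169 CPM in LH1 to LH4 and 621, 534, 407 and 306 CPM in LL1 to LL4. In the follicular phase they were 213, 138, 91.6 and 109 CPM in FH1 to FH4 and 97.8, 425, 145 and 526 CPM in FL1 to FL4. LL4 was below LH1, and FL1 and FL3 lay among the FH sows. The difference over both phases was log2FC 1.14, SE 0.369, unadjusted P = 0.00755 in edgeR, and the exact permutation p was 0.0184.

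The level of ssc-miR-1343, within PDHX, was 43.2 ± 16.5 CPM in LH against 104 ± 29.6 CPM in LL, and 29.5 ± 8.33 CPM in FH against 42.3 ± 24.2 CPM in FL (means of 4 sows ± SD). Sows LH1 to LH4 had 67.4, 39.4, 33.7 and 32.2 CPM of ssc-miR-1343 and LL1 to LL4 had 144, 100.2, 97.3 and 73.2 CPM. Sows FH1 to FH4 had 41.6, 27.3, 22.5 and 26.7 CPM and FL1 to FL4 had 16.01, 59.4, 27.8 and 66.1 CPM. The LL sows were all above the LH sows, and in the follicular phase FL2 and FL4 were above and FL1 was below the FH range. Over both phases ssc-miR-1343 gave log2FC 0.89, SE 0.333, unadjusted P = 0.0171 and did not reach an absolute log2FC of 1. The estimates were 1.26 in the luteal and 0.52 in the follicular phase. ssc-miR-1249, within KIAA0930, had 12.3 ± 13.00 CPM in LH and 40.1 ± 22.2 in LL, and 6.33 ± 2.36 and 10.01 ± 5.33 in FH and FL. The groups overlapped in both phases, since LH1 had 30.98 CPM, more than LL3 and LL4. Its difference was log2FC 1.18, SE 0.534, unadjusted P = 0.0422. The P of ssc-miR-1249 rose above 0.05 in 21 of 33 alternatives, among them TMM on known miRNAs, median-of-ratios scaling and 13 of the 16 fits without 1 sow (all but those without LH1, FH2 or FL1), and its log2FC was as low as 0.41.

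**Figure D2:**
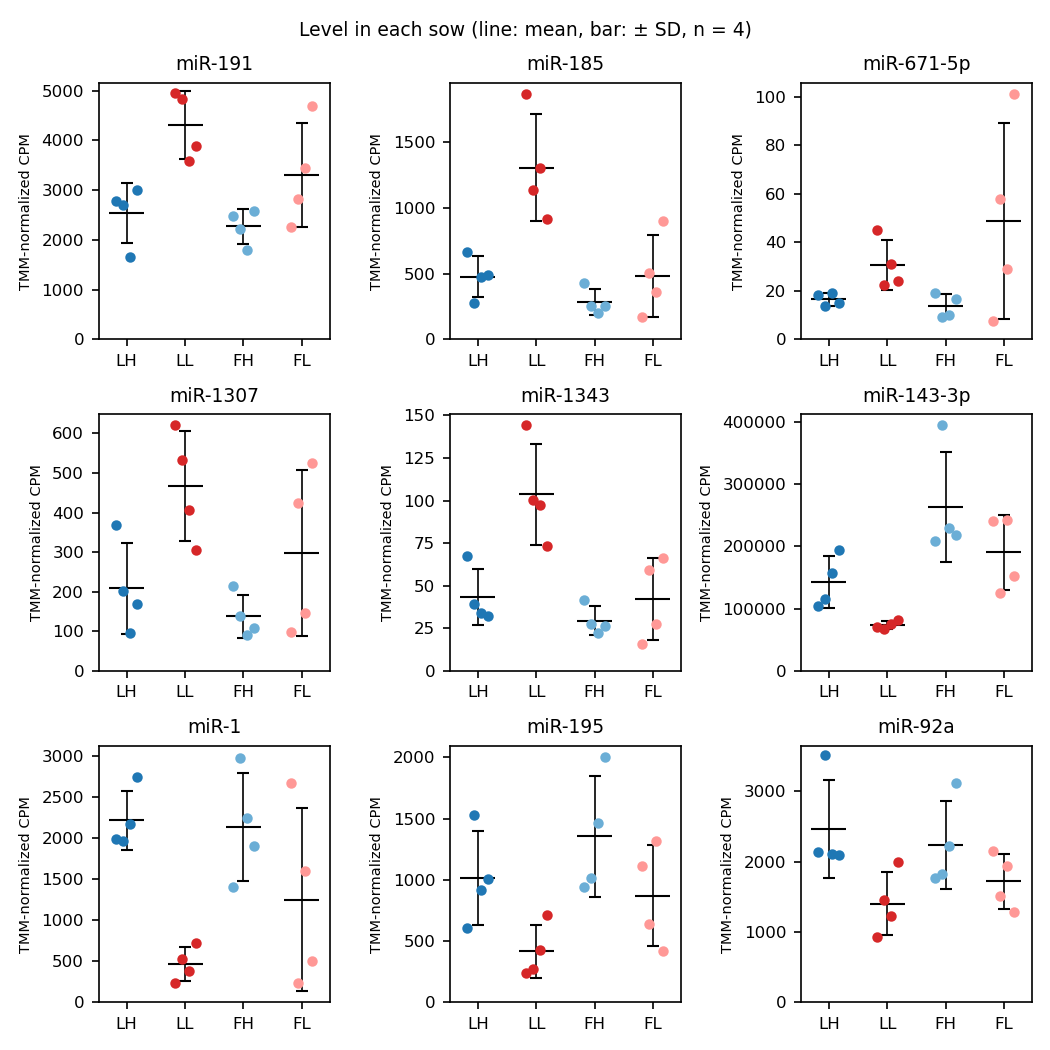
TMM-normalized CPM (vertical axes, starting at 0) of 9 known miRNAs in each sow, grouped as LH, LL, FH and FL. Points are sows, lines the mean and bars ± SD (n = 4). For miR-191, miR-185, miR-671-5p and miR-1343 the 4 LL points lie above the 4 LH points, and for miR-143-3p, miR-1 and miR-92a below them, whereas FL points overlap FH points in all 9 panels.

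The other miRNAs that were called higher were low in level. ssc-miR-296-3p and ssc-miR-296-5p, a single measurement, gave log2FC 1.08, SE 0.373, unadjusted P = 0.0113, with 0.78 in the luteal and 1.37 in the follicular phase. ssc-miR-490-5p, within CHRM2, had 8.14 ± 1.98 CPM in LH against 18.2 ± 4.56 CPM in LL, and 11.8 ± 6.83 CPM in FH against 31.2 ± 28.5 CPM in FL (log2FC 1.28, SE 0.465, unadjusted P = 0.0149). The gap in FL came from FL2 and FL4, with 41.9 and 66.5 CPM, while FL1 had 5.81 CPM. ssc-miR-2366, within MAP1A, was at 6.79 ± 5.55 and 20.6 ± 8.02 CPM in LH and LL and at 3.0 ± 2.399 and 8.02 ± 9.56 CPM in FH and FL (log2FC 1.51, SE 0.619, unadjusted P = 0.0275). ssc-miR-215, of the group of miR-192, miR-194 and miR-215 known from intestine and liver, had the largest estimate (log2FC 2.73, SE 1.07, unadjusted P = 0.0216). For ssc-miR-215, LH1 to LH4 gave 16.2, 3.73, 7.85 and 26.00 CPM, against 2.33, 1.496, 2.29 and 446 CPM in LL1 to LL4. FH1 to FH4 gave 3.38, 3.39, 4.51 and 5.27 CPM, against 3.64, 29.04, 5.603 and 48.1 CPM in FL1 to FL4. The luteal difference came from LL4 alone, since LL1, LL2 and LL3 were below every LH sow, and the exact permutation p was 0.559. ssc-miR-194b-5p, its neighbor within the span of IARS2, was also high in LL4: it had 570.3 CPM there and at most 1.599 CPM in the other LL sows.

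Of the miRNAs higher in low fecundity with a P under 0.05 but an absolute log2FC under 1, ssc-miR-491, within FOCAD, gave log2FC 0.91, SE 0.319, unadjusted P = 0.0121, with 0.86 in the luteal and 0.95 in the follicular phase. ssc-miR-2320-5p gave log2FC 0.98, SE 0.397, unadjusted P = 0.0260. ssc-miR-423-5p, an abundant miRNA at 1697 ± 574 CPM in LH against 2405 ± 358 CPM in LL, and 1210.1 ± 218.8 CPM in FH against 1672 ± 666 CPM in FL, had the smallest estimate of the 19 higher ones, at 0.48. ssc-miR-1468, ssc-miR-500, ssc-miR-222, ssc-miR-324 and ssc-miR-551a made up the rest, with log2FC of 0.61, 0.66, 0.79, 0.63 and 0.95.

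Among the lower miRNAs, ssc-miR-143-3p stood first by P. It lies next to ssc-mir-145 within the span of IL17B, is abundant in smooth muscle and stroma, and had the highest mean level among the 39. The levels of ssc-miR-143-3p were 103710.2, 116103, 157503 and 194876 CPM in LH1 to LH4 and 70568, 67363, 75263 and 82187 CPM in LL1 to LL4. In the follicular phase they were 209328, 395591, 229675 and 218279 CPM in FH1 to FH4 and 241398, 125791, 242979.9 and 152126 CPM in FL1 to FL4. All LL sows were below all LH sows, and in the follicular phase FL2 and FL4 were below every FH sow while FL1 and FL3 were above 3 of them. The difference was log2FC -0.71, SE 0.202, unadjusted P = 0.00309 in edgeR, and the exact permutation p was 0.00449. The estimates were -0.95 (SE 0.279) in the luteal and -0.47 (SE 0.277) in the follicular phase. Scaled by total counts, the log2FC of ssc-miR-143-3p was -0.27 (unadjusted P = 0.0628). ssc-miR-143-5p had the same counts, so the 3p and 5p arms were not measured separately. ssc-miR-145-5p, the neighbor, gave -0.21 (unadjusted P = 0.539), with -0.84 in the luteal and 0.43 in the follicular phase.

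ssc-miR-1, a miRNA of skeletal and cardiac muscle, had the largest difference among the lower miRNAs that were read in every library. Sows LH1 to LH4 had 1993, 1965, 2176 and 2747 CPM of ssc-miR-1 and LL1 to LL4 had 234, 530.4, 379 and 729 CPM. Sows FH1 to FH4 had 1412, 2984, 2254 and 1907 CPM and FL1 to FL4 had 2672, 240.4, 1598 and 503 CPM. Each LL sow was below each LH sow, FL2 and FL4 were as low as the LL sows, and FL1 was above 3 of the FH sows. Over both phases ssc-miR-1 was lower in low fecundity (log2FC -1.51, SE 0.455, unadjusted P = 0.00468), with -2.25 (SE 0.595) in the luteal and -0.77 (SE 0.572) in the follicular phase, and its exact permutation p was 0.00327. ssc-miR-133a-5p, another muscle miRNA that is made from a primary transcript shared with miR-1 in mammals, was called lower as well (log2FC -1.05, SE 0.377, unadjusted P = 0.0135), but gave -0.59 (unadjusted P = 0.104) when scaled by total counts. Its levels were 152 ± 112 CPM in LH against 60.6 ± 24.9 CPM in LL, and 550.4 ± 349.7 CPM in FH against 320.1 ± 146 CPM in FL (mean ± SD, n = 4). Of the other tested muscle miRNAs, ssc-miR-133b gave -1.04 (unadjusted P = 0.0504), ssc-miR-206 gave -0.78 (unadjusted P = 0.127) and ssc-miR-499-5p gave 0.13 (unadjusted P = 0.645). Thus 4 of 5 estimates were negative, with a median of -1.04 against 0.08 over all tested miRNAs. Of the 5, 2 were called lower, where 1.12% of all tested miRNAs were. The sum of the muscle list was 2155 to 3256 CPM in LH and 449 to 984 in LL, and 1883 to 4256 in FH and 565 to 3034 in FL. The median stayed below 0 under every scaling tried. How much muscle or connective tissue each ovary sample held was not tested.

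The third called lower, ssc-miR-338, which lies within AATK, was near the detection limit. For ssc-miR-338, LH1 to LH4 gave 0.439, 1.91, 1.11 and 2.605 CPM, against 0, 0, 0 and 0 CPM in LL1 to LL4. FH1 to FH4 gave 1.595, 9.25, 1.55 and 2.43 CPM, against 2.06, 1.17, 6.46 and 1.19 CPM in FL1 to FL4. It was at 0 counts in all LL sows, where 3 counts would be 0.122 to 0.212 CPM of the library total, and the follicular groups overlapped. The fit over both phases gave log2FC -3.55, SE 1.64, unadjusted P = 0.0466, but the size of the fold depends on how a count of 0 is handled. P rose above 0.05 without any of the LH or LL sows, without FH2, FL1, FL2 or FL4, and when scaled by total counts (unadjusted P = 0.0576). Its estimates in the phases differed, as given below.

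miRNAs known for cell cycle control had mostly negative estimates under TMM scaling, though not when scaled by total counts, and few passed the test. ssc-miR-195 belongs with ssc-miR-15, ssc-miR-16 and ssc-miR-497 to a family that targets cyclins and the regulator BCL2. The levels of ssc-miR-195 were 604, 1532, 921 and 1005 CPM in LH1 to LH4 and 239.6, 276, 432 and 716 CPM in LL1 to LL4. In the follicular phase they were 938, 1012, 1468 and 2002 CPM in FH1 to FH4 and 1109.8, 638, 1320.0 and 422 CPM in FL1 to FL4. LL4 overlapped LH1, and FL1 and FL3 lay within the FH range. It was lower in low fecundity (log2FC -0.96, SE 0.317, unadjusted P = 0.00834), with -1.29 in the luteal and -0.64 in the follicular phase, and the exact permutation p was 0.00980. All 5 tested members of the family had a negative estimate, with a median of -0.25, but ssc-miR-195 alone had a P under 0.05. The share of all tested miRNAs that were lower at that P was 5.17%. Scaled by total counts, 4 of the 5 were positive and ssc-miR-195 kept P under 0.05.

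The miR-17-92 cluster and its paralogs, which promote proliferation, had 8 of 10 members with a negative estimate. Of the 10, 2 were lower with a P under 0.05, ssc-miR-92a and ssc-miR-20a, against 5.17% of all tested miRNAs. Sows LH1 to LH4 had 2133, 3516, 2109 and 2096 CPM of ssc-miR-92a and LL1 to LL4 had 926, 1462, 1230.4 and 1991 CPM. Sows FH1 to FH4 had 1764, 1830.1, 2218 and 3119.9 CPM and FL1 to FL4 had 2151, 1509, 1939.5 and 1291 CPM. Each LL sow was below each LH sow, though LL4 missed the lowest LH sow by a small margin, and all FL sows but FL2 and FL4 lay within the FH range. ssc-miR-92a gave log2FC -0.59, SE 0.208, unadjusted P = 0.0119, with -0.81 in the luteal and -0.37 in the follicular phase. ssc-miR-20a gave log2FC -0.79, SE 0.331, unadjusted P = 0.0301, with -0.45 in the luteal and -1.13 in the follicular phase, a difference between phases that did not pass the test (unadjusted P = 0.310). The median of the list was -0.20, and scaled by total counts 7 of the 10 members were positive, while ssc-miR-92a gave -0.18 (unadjusted P = 0.294) and ssc-miR-20a -0.41 (unadjusted P = 0.212).

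All 7 let-7 miRNAs, which restrain growth and mark differentiated cells, had negative estimates of -0.58 to -0.01, with a median of -0.43. ssc-let-7e (log2FC -0.43, SE 0.176, unadjusted P = 0.0271) and ssc-let-7a (log2FC -0.43, SE 0.187, unadjusted P = 0.0348) had a P under 0.05, where 5.17% of all tested miRNAs were lower at that P. The sum of the family was 85565 to 119381 CPM in LH and 46567 to 85765 in LL, and the ranges of FH and FL overlapped, at 76178 to 110892 and 74579 to 116933 CPM. Scaled by total counts, 3 of the 7 were positive and the median was -0.01, so the direction of the family rests on the scaling. The P of ssc-let-7a rose above 0.05 in 22 of 33 alternatives and that of ssc-let-7e in 14, among them 10 and 7 of the 16 fits without 1 sow.

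Other lists of families and clusters had few members with a P under 0.05. Over all tested miRNAs 7.64% were higher and 5.17% lower at that P. ssc-miR-199a-5p and ssc-miR-199b-5p, miRNAs of mesenchymal cells with nearly equal counts, were lower (log2FC -0.72, SE 0.316, unadjusted P = 0.0372 for ssc-miR-199a-5p), and LL4 lay within the LH range. ssc-miR-374a-5p and ssc-miR-374b-5p of an X-linked cluster gave -0.80 and -0.75. ssc-miR-10b, from a Hox gene cluster, gave -0.55, and all 5 tested entries of miR-10 and miR-196 had negative estimates. Among these, ssc-miR-196b and ssc-miR-196b-5p never had counts in the same library, so they may not be separate measurements. ssc-miR-100, which neighbors ssc-let-7a-1, gave log2FC -0.64, SE 0.250, unadjusted P = 0.0214, and 4 of the 5 tested members of miR-99, miR-100 and miR-125 were negative. All 3 entries of the ssc-miR-221 and ssc-miR-222 cluster, which are 2 measurements because the 3p and 5p entries of ssc-miR-221 had equal counts, had positive estimates, and so had all 3 of the cluster of ssc-miR-362, ssc-miR-500 and ssc-miR-532-5p. In each cluster 1 entry had a P under 0.05, ssc-miR-222 and ssc-miR-500, but ssc-miR-222 did not with TMM on known miRNAs or median-of-ratios scaling. In the DLK1-DIO3 cluster, an imprinted region, 5 of 6 tested members had a positive estimate, with a median of 0.59, and none had a P under 0.05. In edgeR under TMM scaling a P under 0.05 was also absent among the tested members of the families of miR-29, miR-103, miR-130, miR-148 and miR-181, of the clusters of miR-132 and miR-450, and of the lists of markers of ciliated epithelium, liver, erythrocytes, leukocytes and neural tissue. DESeq2 gave the leukocyte marker ssc-miR-142-5p, which was at 0 in 6 libraries, a log2FC of 7.43 (adjusted p = 0.0471). The remaining members of the 20 lower ones were ssc-miR-190a, within TLN2, at -0.96, ssc-miR-101 at -0.83, ssc-miR-27b-5p at -0.42 and ssc-miR-30c-5p at -0.34. Scaled by total counts, none of the lower miRNAs named here had a P under 0.05: ssc-miR-199a-5p gave -0.37, ssc-miR-374a-5p -0.46, ssc-miR-10b -0.15 and ssc-miR-100 -0.21, and ssc-miR-30c-5p and ssc-miR-27b-5p changed sign, to 0.09 and 0.00299.

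Of the 12 tested miRNAs that the study placed in its networks, which it chose on these samples, 5 were higher and 1 was lower with a P under 0.05. Over all tested miRNAs 7.64% were higher and 5.17% lower at that P. Those not passing were ssc-miR-652 at 0.59 (unadjusted P = 0.0586), ssc-miR-127 at 0.87 (unadjusted P = 0.0839), ssc-miR-362 at 0.48 (unadjusted P = 0.117), ssc-miR-504 at -0.57 (unadjusted P = 0.169), ssc-miR-361-3p at -6.03 (unadjusted P = 0.340) and ssc-miR-885-5p at 0.91 (unadjusted P = 0.793). ssc-miR-361-3p was read in LH2, LH3, FH4 and FL2, at 239, 207.8, 201 and 181 CPM, and was at 0 in the other 12 libraries. The entry of its other arm, ssc-miR-361-5p, was at 0 in LH2, LH3, FH4 and FL2, and also in LH4 and FL4. In all other libraries ssc-miR-361-5p had 1004 to 4258 counts, so no library had counts of both entries. The -6.03 therefore does not show a change in the level of this miRNA. In all, 25 known miRNAs had 0 counts in a library and over 100 in another, and none of the 39 was among them. How reads were assigned to an entry is not given in the sources used here.

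The higher and the lower miRNAs differed in level. The 19 higher ones had mean levels of 2.30 to 3106 CPM over the 16 sows, with a median of 71.8, and the 20 lower ones 1.99 to 167671 CPM, with a median of 2012. Of the 86 known miRNAs under 100 CPM, 14 were higher and 2 lower with a P under 0.05, and their median log2FC was 0.31. Of the 114 at 100 CPM or more, 5 were higher and 18 lower, and the median was -0.13. Among the 54 at 1000 CPM or more, 38 estimates were negative and the median was -0.29. Scaled by total counts, the medians were 0.77 under and 0.32 over 100 CPM, with 27 higher and 0 lower under and 25 higher and 2 lower over 100 CPM at a P under 0.05 (edgeR), so the abundant miRNAs stayed below the scarce ones in log2FC but their median was no longer negative.

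**Figure D3:**
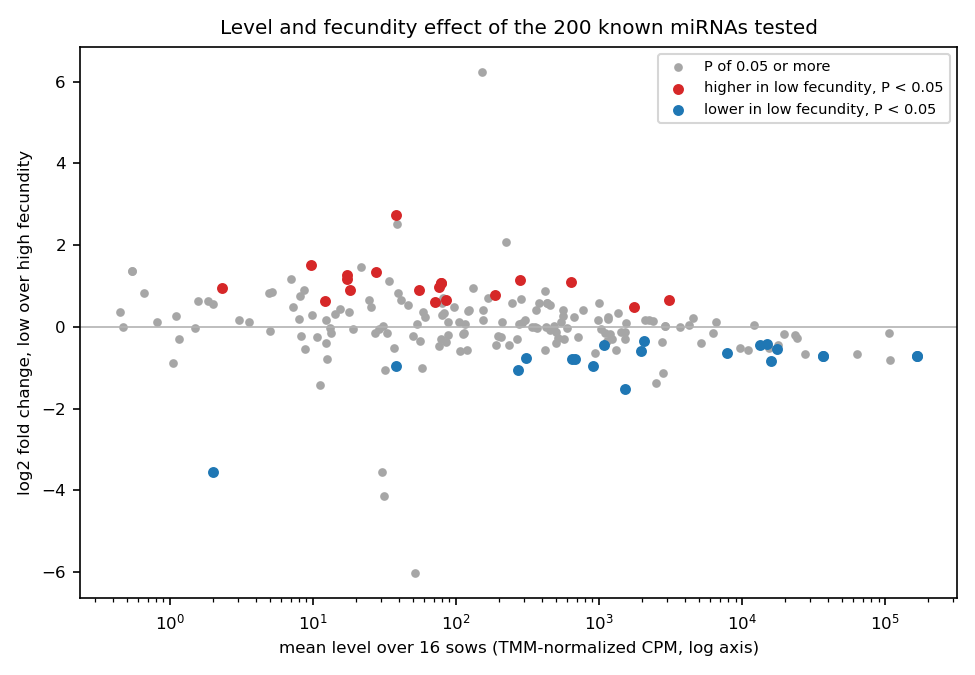
Mean level over the 16 sows in TMM-normalized CPM (horizontal, log axis) against the log2 fold change of low over high fecundity for the 200 known miRNAs tested. Red points are higher and blue points lower in low fecundity with an unadjusted P under 0.05. Of the 23 colored points at 100 CPM or more 18 are blue, and of the 16 under 100 CPM 14 are red, a split that did not hold with scaling by total counts (2 lower of 27, and 0 lower of 27).

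Each low-fecundity sow was set against the 4 high-fecundity sows of its own phase to see how the 39 miRNAs were carried by single sows. This is a description, since the same values gave the 39. In the luteal phase 34 of the 39 miRNAs lay beyond the LH range in the direction of the fitted effect in LL1, 31 in LL2, 29 in LL3 and 19 in LL4. In the follicular phase the numbers were 33 in FL2 and 36 in FL4, but 12 in FL3 and 3 in FL1. FL2 and FL4 were also the follicular libraries that stood apart in the summed markers of ciliated and tubal epithelium, at 7510 and 16082 CPM against 157 and 180 CPM in FL1 and FL3. In FL2 and FL4 that sum was mostly ssc-miR-34c. The liver marker was at 1363 CPM in FL2 against 30.1 to 277 CPM in the other FL sows. The part of these cells in the result was not tested. FL1 had 25 of the 39 within the FH range and 11 beyond it in the opposite direction. Without FL1 the number called was 20 in place of 12, and without FL4 it was 5.

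**Figure D4:**
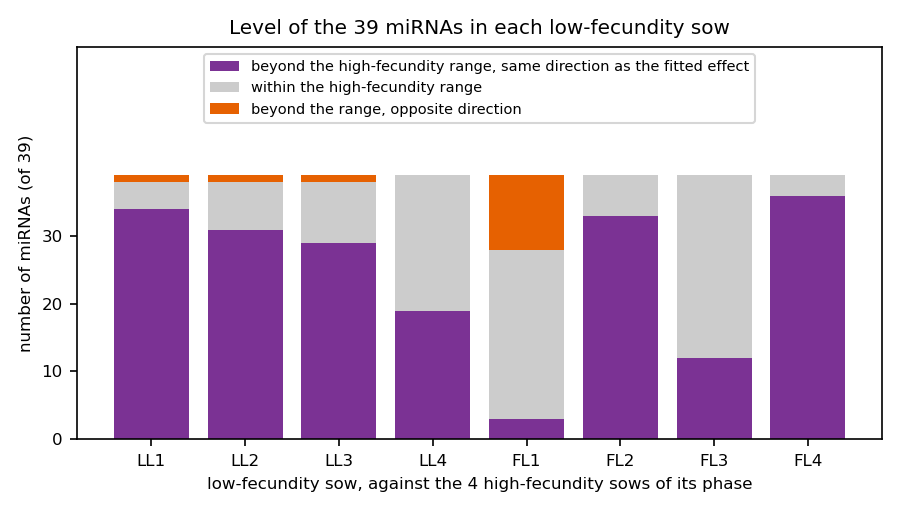
For each low-fecundity sow, the bar splits the 39 miRNAs by whether the sow's level was beyond the range of the 4 high-fecundity sows of its phase in the direction of the fitted effect, within that range, or beyond it in the opposite direction. LL1, LL2, LL3, FL2 and FL4 have 29 to 36 of 39 beyond the range, whereas FL1 has 3 and FL3 has 12.

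LL1, FL2 and FL4, with 34, 33 and 36 miRNAs beyond the range, were also the libraries with the lowest share of clean reads. With that share as a covariate all 39 kept their sign, 37 estimates became smaller, the median absolute log2FC went from 0.80 to 0.35, and 2 known miRNAs of the 39 kept a P under 0.05, ssc-miR-191 (log2FC 0.47, SE 0.200, unadjusted P = 0.0335) and ssc-miR-1 (log2FC -0.82, SE 0.340, unadjusted P = 0.0308). Without these 3 libraries all 39 kept their sign, the median was 0.47, and ssc-miR-191, ssc-miR-1 and ssc-miR-185 had a P under 0.05. With parity as a covariate the 39 signs were kept, the median was 0.73, and ssc-miR-190a, ssc-miR-101 and ssc-miR-195 had a P under 0.05. None of the 12 called miRNAs was called in any of these 3 fits. Library quality, parity and fecundity cannot be told apart for most of the 39.

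In the model with 4 groups, 53 known miRNAs had a P under 0.05 in the luteal phase, where the share over all tested miRNAs was 19.6%, and 20 in the follicular phase, where it was 9.89%. The 20 are 10% of the known miRNAs tested, a share near that of all tested miRNAs. In the luteal phase ssc-miR-338 had an adjusted p of 0.0214 (edgeR), and in the follicular phase no known miRNA had one under 0.05. In the luteal phase the LL and LH sows did not overlap for 35 known miRNAs, where the share over all tested miRNAs was 13.3%. In the follicular phase the FL and FH sows did not overlap for 5 of the 200, a share near the 2.25% of all tested miRNAs. No known miRNA was without overlap in the same direction in both phases, and among all 445 tested miRNAs there was 1 (0.225%), a predicted one. By exact permutation within phases, 45 known miRNAs (22.5%) had p under 0.05, against 17.5% of all tested miRNAs, and 33 of the 39 were among them. Over the 200 known miRNAs the estimates of the phases had the same sign in 107 (53.5%, against 53.7% of all tested miRNAs). Across miRNAs, which are not independent replicates, Pearson's r between the phases was -0.11 and Spearman's rho 0.11. The phases used different sows and shared only the normalization. The same sign of all 39 is in large part set by the choice of miRNAs that passed the test of the average.

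**Figure D5:**
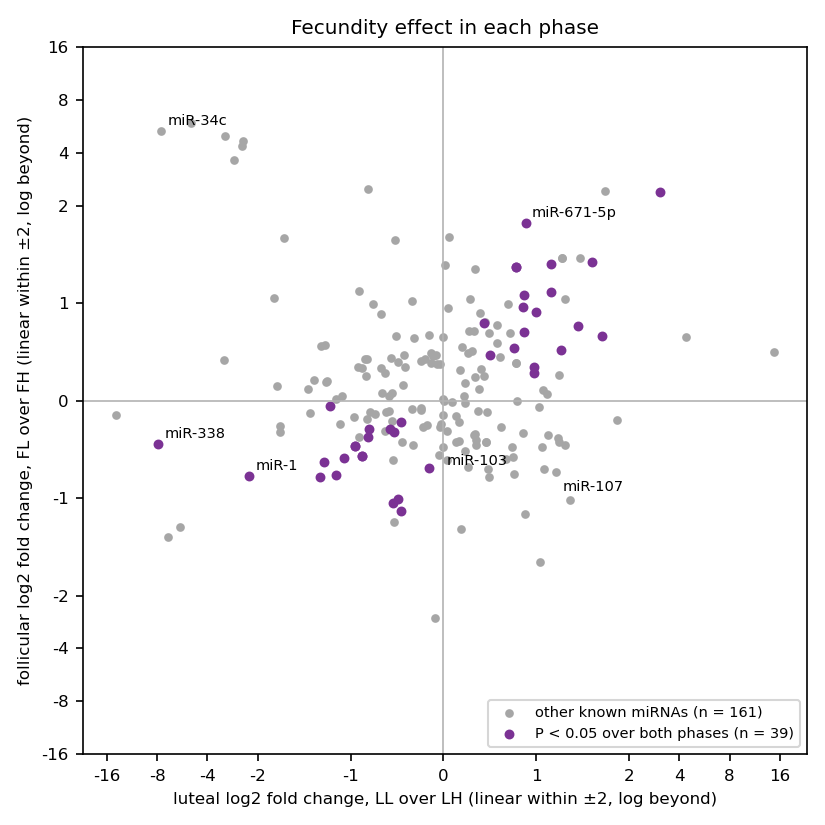
Log2 fold change of LL over LH (horizontal) against FL over FH (vertical) for the 200 known miRNAs tested, on axes that are linear between -2 and 2 and logarithmic beyond. The 39 miRNAs with an unadjusted P under 0.05 over both phases are purple and lie in the lower left and upper right quadrants, and 93 of the other 161 lie in the quadrants of opposite sign, among them miR-103, miR-107 and miR-34c.

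A direct test of the difference between the phases called 30 of the 200 known miRNAs by the same threshold. This share was near the 13.3% of all tested miRNAs that were called. An unadjusted P under 0.05 was found for 34 known miRNAs, against 14.2% of all tested miRNAs. None had an adjusted p under 0.05 (edgeR, smallest adjusted p 0.0693). DESeq2 with no filter and no outlier handling called 11. Of the 34, 31 had opposite signs in the phases, 21 lower in LL and higher in FL and 10 the reverse. These opposite signs are in large part set by the choice of miRNAs that passed the test of the difference. ssc-miR-107, within PANK1 and known from lipid metabolism, was at 694, 316, 614 and 521 CPM in LH1 to LH4 and 1417, 1175, 1317 and 1065 in LL1 to LL4, and at 852, 411, 544 and 400.3 in FH1 to FH4 and 276, 307, 363 and 384 in FL1 to FL4. Under TMM scaling all LL sows were above the LH sows and all FL sows below the FH sows, so the estimates of 1.21 (SE 0.292) in the luteal and -0.73 (SE 0.290) in the follicular phase cancelled to 0.24 over both phases (interaction, unadjusted P = 0.000311, adjusted p = 0.0693, edgeR). By total counts the luteal groups stayed apart but the follicular groups overlapped. FL4 had 6795 counts of ssc-miR-107 among 14445948 in total, and FH4 had 11019 among 37194836. ssc-miR-103, its near-identical family member whose reads may be shared with it, had the same pattern, with 0.76 (SE 0.260) in the luteal and -0.75 (SE 0.260) in the follicular phase and 0.00 over both. Scaled by total counts, both family members had positive estimates over both phases, with a median log2FC of 0.57. ssc-miR-34c, abundant in ciliated epithelium, gave -7.58 in the luteal and 5.33 in the follicular phase. Its values were decided by LH4 (21379 CPM), FL2 (7335 CPM) and FL4 (15224 CPM), while the other 13 sows had 18.3 to 196 CPM. The summed markers of that epithelium stood apart in the same libraries, but the sum is mostly ssc-miR-34c itself and is not a separate result. Of the 39, ssc-miR-338 (unadjusted P = 0.000221) and ssc-miR-100 (unadjusted P = 0.0102) passed 0.05 in this test. ssc-miR-100 had 5012, 8928, 6641 and 8366 CPM in LH1 to LH4 and 1944, 2372, 3188 and 4876 in LL1 to LL4, without overlap, but averaged 10633 ± 1929 CPM in FH against 10232 ± 1684 CPM in FL (± SD), so that its lower level over both phases came from the luteal sows. For the other 37, no difference between phases was detectable at this sample size, which does not show that the effects were equal.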

How the data were processed

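The authors sequenced small RNA libraries of 16 ovaries, removed adapters and low-quality reads, mapped the rest to Sscrofa10.2 with Bowtie 2 (version 2.1.0 per the submitters' processing notes) and deposited raw counts per miRNA, neither normalized nor filtered. The assignment of reads is not given in the sources used here. All 16 columns were mapped by title, and 0 columns were left unmapped. Other assays of the study were not analysed here.

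Counts were tested in R 4.3.3 with edgeR 4.0.16 (entries kept by filterByExpr at a minimum of 10 counts and 15 in total, TMM, quasi-likelihood test, phase plus fecundity) on all entries, with Benjamini-Hochberg adjustment. DESeq2 1.42.0 was an alternative. Phases and the interaction came from a model of 4 groups. Exact permutation tests used 4900 assignments within phases on log2(CPM + 1). Floors (3 counts) cover counting error only. SEs come from the quasi-likelihood fit and, like the P-values, measure the spread between sows, 1 library each.

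The members and lists were chosen with earlier results of these data known. Named miRNAs were the called or lowest-P ones in each direction, the nodes of the study's networks, and those with the smallest interaction P. The other miRNAs were named after their values were seen. Parity and clean read share came from the study's records and entered fits only. Host genes and neighbors are from RefSeq (Sscrofa11.1), where 212 of 216 known names matched. Mature sequences were not used here. Alternatives covered scaling, filters, tool, spread estimate, design, covariates and leaving out each sow.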

Additional observations from a re-analysis of the deposited data

Results flagged for a closer look

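In groups of 4 sows, a sow was taken as far from the others when its gap to the nearest sow exceeded 0.829 of the group's range (Dixon's 95% value). Gap and range were taken on log2(CPM + 1), while the levels below are in CPM. Of 134 groups of named miRNAs, 11 met this, and chance gives about 7. The ratio was 0.944 for ssc-miR-215 in LL4, with 446 CPM against at most 2.33 in the other LL sows. It was 0.966 for ssc-miR-92a in LH2, 0.847 for ssc-let-7e in LH1, 0.887 for ssc-miR-2320-5p in FH1 and 0.857 for ssc-miR-133a-5p in FL3. Both arms of ssc-miR-143, ssc-miR-143-3p as well as ssc-miR-143-5p, which are a single measurement, had 0.854 in FH2. LH4 was far from the other LH sows for ssc-miR-34c (0.841) and for ssc-miR-885-5p (0.916, 43.1 CPM against at most 0.376). ssc-miR-361-3p had a ratio of 1 in FH4 and in FL2, because the other sows of each group were at 0.

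The fecundity effect differed between phases with an unadjusted P under 0.05 for 6 named miRNAs, none with an adjusted p under 0.05 (edgeR). The follicular minus the luteal log2FC was 1.17 for ssc-miR-100, 7.42 for ssc-miR-338, 8.15 for ssc-miR-885-5p and 12.91 for ssc-miR-34c. It was -1.10 for ssc-miR-362 and -1.95 for ssc-miR-107. ssc-miR-885-5p was above 2 CPM only in LH4, FL2 and FL4.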

How the results depend on the processing

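The 12 known miRNAs called over both phases became 20 with DESeq2 on the same filter, 34 with scaling by total counts only (33 higher and 1 lower, against 9 and 3), 4 with parity as a covariate, 2 with the share of clean reads as covariate and 4 without LL1, FL2 and FL4. Leaving out 1 sow gave 5 (without FL4) to 20 (without FL1), with 7 without LL1 and 18 without FH1. The 0 with an adjusted p under 0.05 became 5 with DESeq2 on the same filter, and leaving out 1 sow in edgeR left the number at 0. DESeq2 without a filter and without outlier handling also gave 5, but of the first 5 only ssc-miR-142-5p was among them. The rest were ssc-miR-365-3p, ssc-miR-421-5p, ssc-miR-4331 and ssc-miR-664-5p, each read in only 1 or 2 libraries. With no filter on low counts edgeR gave 3, which were ssc-miR-143-3p, ssc-miR-143-5p and ssc-miR-4331. The 30 miRNAs called for the interaction became 11 with DESeq2 without a filter and without outlier handling, and 26 to 39 when 1 sow was left out. Replicate numbers did not pair the sows: across 24 pairs with the same number the correlation of deviations was -0.448 to 0.412, and in 8 of the 24 the first sow correlated best with its own number. The replicate block gave 10 called miRNAs over both phases, all among the 12, and 23 for the interaction. The quasi-likelihood fit without the legacy dispersion, chosen after seeing the data, gave 18, and leaving out entries at 0 in a library and over 100 counts in another gave 12.

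Of 1117 alternative values of 34 named miRNAs, 867 kept direction and side of an unadjusted P of 0.05, whatever the fold change. A P under 0.05 was lost in 216 and gained in 20, and 14 values changed sign. Leaving out 1 sow at a time ended a P under 0.05 for ssc-miR-1249 in 13 of 16 fits, ssc-miR-338 in 12, ssc-let-7a in 10, ssc-let-7e, ssc-miR-20a and ssc-miR-27b-5p in 7, ssc-miR-2366 in 6 and ssc-miR-2320-5p in 4, for ssc-miR-215 without LL4 or FL4, for ssc-miR-490-5p without FL4 and for ssc-miR-190a without FH4. ssc-miR-27b-5p was 0.00299 with scaling by total counts. ssc-miR-34c was 0.042 without the phase term, 2.03 without LH4 and 2.37 without LL1, LL2, LL3 or LL4, in a range of -4.79 to 2.37 when 1 sow was left out. ssc-miR-885-5p was -5.08 with parity, -1.97 with clean read share, -1.81 without the 3 libraries, and -0.57, -0.46, -0.53 and -0.54 without FH1, FH2, FH3 and FH4, in a range of -0.57 to 4.12 when 1 sow was left out. The cause was not tested.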
